A study of Mus musculus with 23 samples.

Results

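The translation initiation factor genes are described here in mouse melanoma tumors, as the protein-coding genes of the count table whose symbols begin with Eif1 to Eif6 and which do not lie on the X or Y chromosome. The rule found 70 genes among the 56748 listed, and it also takes in the genes of the 4E-binding proteins and of the kinases that phosphorylate eIF2. It leaves out 3 genes on the sex chromosomes, Eif2s3x, Eif1ax and Eif2s3y. After the filter on low counts, 50 of the 70 were tested in both routes. The other 20 were not tested, and they comprise 16 copies of Eif1ad clustered on chromosome 12, Eif4ebp3, Eif4e1b, Eif4a3l1 and Eif4a3l2. Of these, 9 had no count in any tumor, and the highest count of any of them in a tumor was 10, for Eif4a3l2.

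Initiation begins when eIF2, loaded with GTP and the initiator tRNA, joins the small ribosomal subunit together with eIF1, eIF1A, eIF3 and eIF5. The eIF4F complex, made of the cap-binding protein eIF4E, the scaffold eIF4G and the RNA helicase eIF4A, brings the messenger RNA, and eIF5B then joins the large subunit. Cells restrain the process at 2 points: kinases such as PERK and GCN2 phosphorylate eIF2, which blocks its exchange factor eIF2B, and 4E-BP1 holds eIF4E away from eIF4G until mTOR phosphorylates it. Both brakes are well studied in tumors, and mTOR is one of the proteins that the study measured.

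The 23 tumors grew under the skin of the right flank of inbred DBA/2J mice, 6 to 8 weeks old, from B16-F1 cells, an established mouse melanoma line that all groups share. In the intraperitoneal (IP) route, CONTROL_IP received saline, PTX_IP pentoxifylline at 60 mg/kg, NCTD_IP norcantharidin at 3 mg/kg and MIX_IP both drugs at these doses, with 2 tumors in each group. In the intratumoral (IT) route, CONTROL_IT (4 tumors) received DMSO, and PTX_IT (3), NCTD_IT (4) and MIX_IT (4) received the same doses into the tumor. The design text states that the groups were matched for sex, but Xist, given below, was not balanced between the IT groups. Sex can therefore not be taken as balanced among the sequenced tumors, and its part in the results was not tested. Route, vehicle and the batch given in the labels coincide, so that they cannot be told apart. Each tumor is called by its number in the labels. Nothing in them says that every tumor came from its own mouse, so that the p-values measure the spread between these tumors. The study asked how each drug and the pair change gene expression against the control of the route. The 3 IT comparisons share CONTROL_IT and the 3 IP comparisons share CONTROL_IP, and their values are therefore given side by side and not as independent repeats.

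Library totals lay between 2861578 and 6702374 counts, and the 70 genes took between 0.885% and 1.41% of them. The 7 melanoma markers (among them Pmel, Mlana, Dct and Tyr) were above the floor of 3 counts in every tumor. In the IT route the treated tumors also differed from CONTROL_IT in values outside this gene family. The nuclear RNA Malat1 lay at 75.5 to 96.6 CPM (counts scaled to library size, with edgeR's TMM factors) in CONTROL_IT, at 73.6 to 418 in PTX_IT, at 283 to 695 in NCTD_IT and at 155 to 499 in MIX_IT. The mitochondrial share of counts was 2.42% to 2.68% in CONTROL_IT, 2.97% to 3.86% in PTX_IT, 2.47% to 6.32% in NCTD_IT and 3.57% to 5.73% in MIX_IT. Xist, the RNA of the inactive X chromosome, reached at most 0.567 CPM in CONTROL_IT, lay at 1.27 to 11.4 in PTX_IT and 5.25 to 13.4 in NCTD_IT, and had no count in MIX_IT. In the IP route it was counted in CONTROL_IP tumor 2 (8.20 CPM) and in no other tumor. The summed level of 5 fibroblast markers was 103 to 360 CPM in CONTROL_IT, 247 to 797 in PTX_IT, 370 to 1660 in NCTD_IT and 481 to 8549 in MIX_IT, and that of the melanoma markers was 26368 to 31142, 24431 to 30972, 19331 to 26687 and 15362 to 28802 CPM in the same order. The 3 endothelial markers summed to 23.6 to 51.6 CPM in CONTROL_IT, 43.8 to 67.8 in PTX_IT, 56.0 to 115 in NCTD_IT and 46.8 to 182 in MIX_IT. The part of these values in the results below was not tested. Fits with Xist are given, but in NCTD_IT and PTX_IT they cannot tell Xist from the drug. In bulk tumors, fewer cells of a type and less RNA per cell cannot be told apart.

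The starts of genes that carry the results are shown because many messenger RNAs of the translation machinery begin with a run of pyrimidines, which makes them answer to mTOR. Each window holds 15 bases before and 15 bases from the start of the canonical transcript in GENCODE M39 on GRCm39, with the longest run of C or T in capitals.
Eif4ebp1 (chr8:27750335-27750364, + strand): agggggcgtggagCCCaggcggaaggggcg
Eif1 (chr11:100210655-100210684, + strand): gcgcacgcgtcaagccttgactccgCCCCC
Eif3e (chr15:43146160-43146189, - strand): TTgggcggggccactactgcacatgcgcag
Eif3f (chr7:108533606-108533635, + strand): ttctgttctaggCTCTCTCTCTTTCTCggc
Eif4a1 (chr11:69563130-69563159, - strand): aggcgggcaCTCCgccctagattctaagga
Eif5b (chr1:38037023-38037052, + strand): tagaaCCCgggatccgccggacgtcggtgc
Eif3a (chr19:60779124-60779153, - strand): ctacaTCCggggctcgggcggcggcgctgc
Eif2ak4 (chr2:118218967-118218996, + strand): tccgcccccaggttcgTCTCCCgctggaga
Among these, only Eif3f has a long run across the start, of 15 bases. The starts are those of the annotation and were not measured in these tumors. A window without a run therefore does not show that the messenger RNA lacks it. Over the 50 tested members, 4 (Eif2b5, Eif2s1, Eif3f and Eif3k) have a run of at least 8 bases of C or T, read on the coding strand, that touches the 3 bases before the start or the first 4 bases from it. That is 8.0% of them, beside 8.4% of 21757 protein-coding genes. The median log2 fold change of these 4 was -0.49 in NCTD_IT vs. CONTROL_IT and -0.26 in MIX_IT vs. CONTROL_IT, beside -0.29 and -0.22 for the other 46. These 4 genes were singled out by their letters and are too few for more than a description.

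Most members had negative log2 fold changes in each of the 3 comparisons of the IT route. The median log2 fold change over the 50 members was -0.29 in NCTD_IT vs. CONTROL_IT, -0.22 in MIX_IT vs. CONTROL_IT and -0.18 in PTX_IT vs. CONTROL_IT, while over all genes tested it was 0.03, 0.01 and 0.02. In NCTD_IT 37 members had a negative log2 fold change, in MIX_IT 36 and in PTX_IT 37, beside 48.0%, 48.9% and 48.4% of all genes tested. The counts of negative values by complex below stand beside the same shares. In all 3 comparisons 31 members were negative. The share of all genes negative in all 3 is not given here, and the comparisons share CONTROL_IT. Leaving out a tumor at a time gave medians of -0.38 to -0.23 in NCTD_IT, -0.29 to -0.19 in MIX_IT and -0.32 to -0.10 in PTX_IT, where -0.32 came without PTX_IT tumor 16 and -0.10 without PTX_IT tumor 15. In the IP route the medians were 0.10 in PTX_IP, 0.00 in NCTD_IP and 0.09 in MIX_IP. Without a tumor they lay between -0.02 and 0.23 in PTX_IP (-0.02 without PTX_IP tumor 4, 0.23 without PTX_IP tumor 3 and 0.21 without CONTROL_IP tumor 1), between -0.04 and 0.08 in NCTD_IP (-0.04 without NCTD_IP tumor 5 and 0.08 without NCTD_IP tumor 6) and between 0.07 and 0.16 in MIX_IP (0.16 without MIX_IP tumor 8), so that the sign was not stable in PTX_IP and NCTD_IP. The heat map of all 50 members shows the negative values of the IT columns and the mostly positive values of PTX_IP and MIX_IP.

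**Figure D1:**
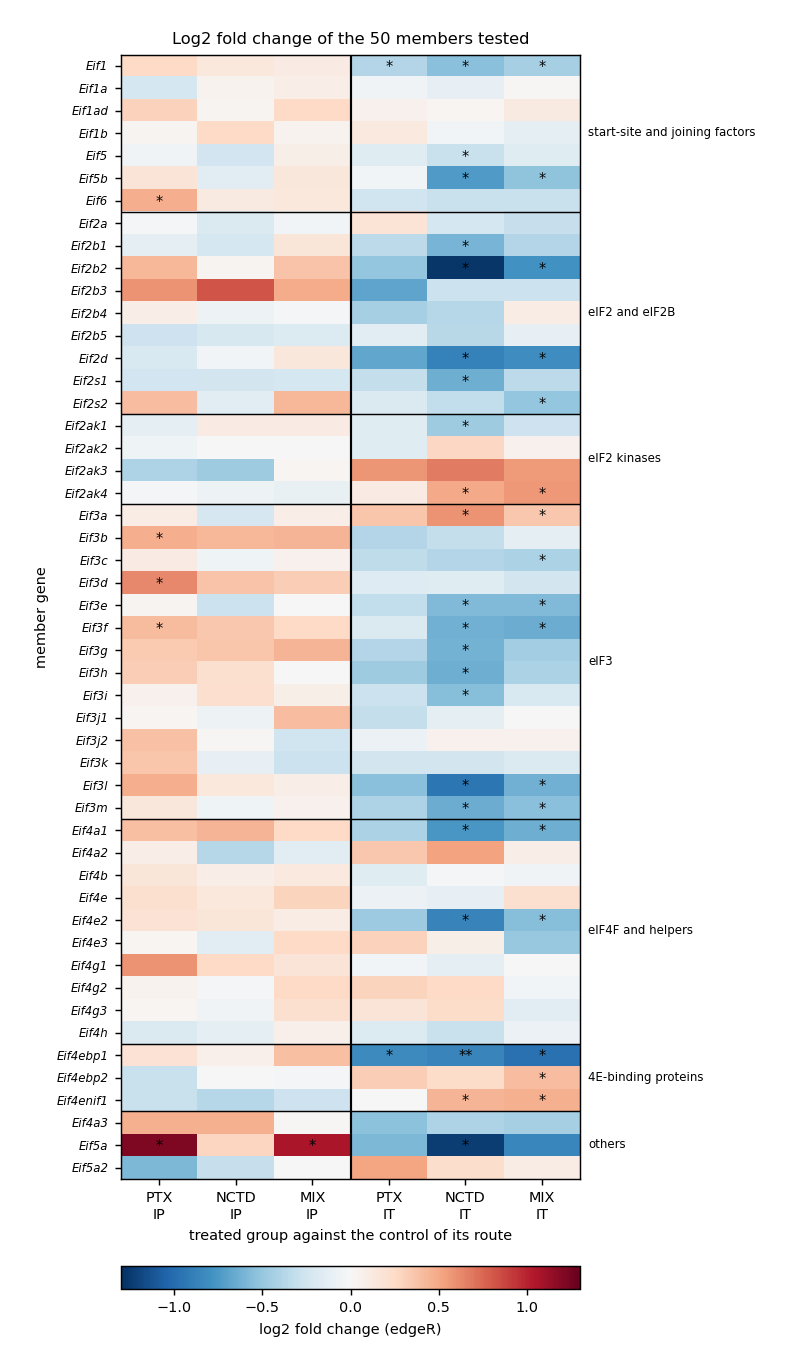
Log2 fold change (edgeR) of the 50 tested members, one per row and grouped by complex, in the 6 comparisons of a treated group with the control of its route (columns). An asterisk marks an unadjusted p below 0.05 and a double asterisk an adjusted p below 0.05, which Eif4ebp1 in NCTD_IT alone reached.

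In NCTD_IT vs. CONTROL_IT, 1 of the 50 members passed the adjusted threshold of 0.05 in edgeR's quasi-likelihood test with Benjamini-Hochberg adjustment over all 12480 genes, where the background of all genes was 1.37%. At an unadjusted p below 0.05, 19 members were lower and 3 higher, beside 10.0% and 11.6% of all genes tested. In 15 members every NCTD_IT tumor lay below every CONTROL_IT tumor and in 3 every tumor lay above, beside 8.84% and 7.90% of all genes. In MIX_IT vs. CONTROL_IT no member passed the adjusted threshold (0% of all genes did). There, 13 members were lower and 4 higher at an unadjusted p below 0.05, beside 5.11% and 7.88% of all genes, and the groups did not overlap in 11 lower and 2 higher members, beside 5.02% and 4.94%. DESeq2 on the 2 groups called 12 members in NCTD_IT, 4 in MIX_IT and 0 in PTX_IT, beside 10.6%, 1.92% and 0.0969% of all genes to which it gave an adjusted p. In PTX_IT vs. CONTROL_IT none passed (0% of all genes), 2 members, Eif1 and Eif4ebp1, were lower and none higher at an unadjusted p below 0.05, beside 2.16% and 4.18%, and the groups did not overlap in 6 lower and 2 higher members, beside 4.29% and 3.76%.

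These counts moved when single tumors were left out and when Xist entered the model. Every NCTD_IT and PTX_IT tumor had more Xist than every CONTROL_IT tumor, so that a fit with Xist cannot tell it from the drug there. Without PTX_IT tumor 16, whose Malat1 level (73.6 CPM) was near that of the controls, 18 members were lower in PTX_IT at an unadjusted p below 0.05, and without PTX_IT tumor 13 or CONTROL_IT tumor 12 there was 1. Without MIX_IT tumor 23 the count in MIX_IT was 6 in place of 17, and without CONTROL_IT tumor 12 it was 11. When the Xist level entered the model (log2 CPM), the median of the members was 0.24 in NCTD_IT and 0.25 in PTX_IT, with 5 members higher and 1 lower in NCTD_IT and 3 higher and 1 lower in PTX_IT at an unadjusted p below 0.05. In MIX_IT, whose tumors have no Xist count and in that respect resemble the controls, the median with the covariate was -0.29, with 2 members higher and 18 lower. The shares of all genes in these fits are not given here, so that the moves cannot be read as particular to the members.

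Eif4ebp1, which encodes 4E-BP1, was the member with the smallest p in all 3 IT comparisons. The gene lies on chromosome 8 (27750357 to 27766702, + strand). Its level in CONTROL_IT was 185, 120, 113 and 148 CPM in tumors 9 to 12. In PTX_IT it was 77.7, 68.8 and 91.7 CPM, in NCTD_IT 65.3, 95.5, 90.7 and 62.4 CPM, and in MIX_IT 71.9, 73.6, 65.7 and 78.2 CPM. Every treated IT tumor was thus below every control, and the 4 values of MIX_IT lay close together. Eif4ebp1 fell by 0.86 on the log2 scale in NCTD_IT (SE 0.19, adjusted p = 0.0414). The log2 fold change was -0.97 in MIX_IT (SE 0.19, adjusted p = 0.121) and -0.83 in PTX_IT (SE 0.21, adjusted p = 0.758). DESeq2 on the 2 groups gave adjusted p-values of 0.00539 in NCTD_IT, 0.00181 in MIX_IT and 0.224 in PTX_IT. The NCTD_IT call was lost in 7 of the 8 fits that left out a tumor, where the log2 fold change lay between -0.96 and -0.70, and without CONTROL_IT tumor 9, the highest control, it was -0.70 (adjusted p = 0.137). It was also lost with Xist as a covariate, at -0.48 (adjusted p = 0.859), while the MIX_IT value was -1.02 with it. In NCTD_IT that fit cannot tell Xist from the drug.

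In the IP route the same gene stood at 109 and 103 CPM in CONTROL_IP, 95.1 and 145 in PTX_IP, 106 and 116 in NCTD_IP and 156 and 123 in MIX_IP. These values overlap or lie above the controls, and the log2 fold changes were 0.19 (SE 0.24), 0.07 (SE 0.24) and 0.39 (SE 0.24). The difference between the routes was -1.36 for MIX (SE 0.32, unadjusted p = 4.1e-04, adjusted p = 0.584), -1.02 for PTX (SE 0.33, adjusted p = 0.892) and -0.93 for NCTD (SE 0.32, adjusted p = 0.323).

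**Figure D2:**
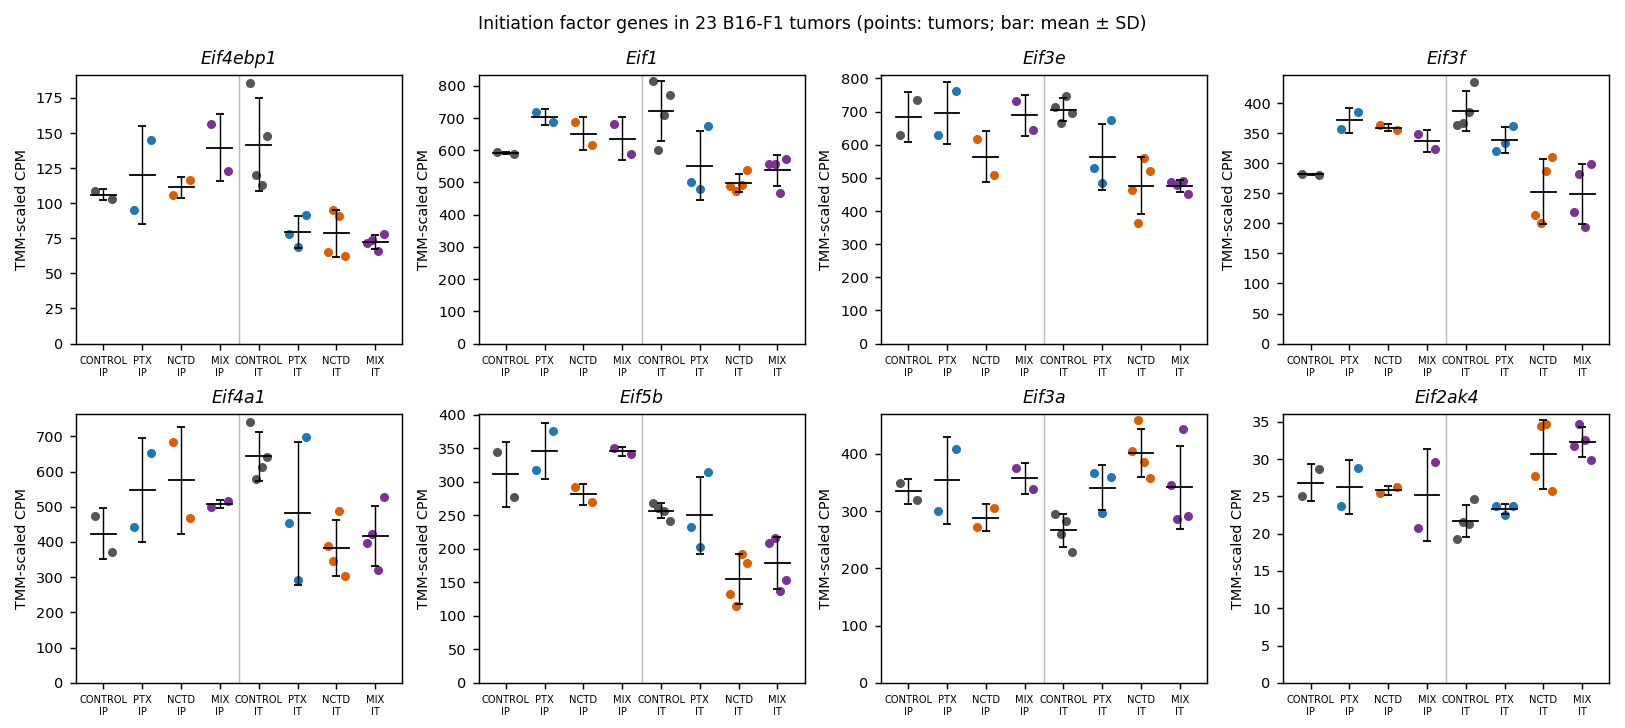
TMM-scaled CPM of 8 members in the 23 tumors (points), with the mean and SD of each of the 8 groups. For Eif4ebp1 all 11 treated IT tumors lie below the lowest CONTROL_IT tumor at 113 CPM, and Eif3a and Eif2ak4 show higher values in NCTD_IT.

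The other tested 4E-binding members had positive log2 fold changes in the 3 IT comparisons. Eif4ebp2, the paralog of 4E-BP1, lay at 225 to 293 CPM in CONTROL_IT and at 305 to 413 CPM in MIX_IT, so that these groups did not overlap (log2 fold change 0.40, SE 0.18, unadjusted p = 0.0452, adjusted p = 0.374). It was at 255 to 405 CPM in NCTD_IT and 258 to 414 CPM in PTX_IT, both overlapping the controls. Eif4enif1 encodes 4E-T, which carries eIF4E into the nucleus and to sites of RNA decay. It was at 23.5 to 31.2 CPM in CONTROL_IT, 33.6 to 40.4 in NCTD_IT (log2 fold change 0.44, SE 0.18, adjusted p = 0.162) and 29.3 to 48.0 in MIX_IT (0.46, SE 0.18, adjusted p = 0.277). The 3 genes together summed to 435 ± 48.9 CPM (SD, n = 4) in CONTROL_IT, 439 ± 89.1 (n = 3) in PTX_IT, 432 ± 78.3 (n = 4) in NCTD_IT and 463 ± 44.7 (n = 4) in MIX_IT, so that the means of the sums lay within 1 SD of each other.

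The eIF3 complex, the largest of the factors and the platform of the small subunit, had 14 tested genes. In NCTD_IT, 7 were lower and 1 higher at an unadjusted p below 0.05, beside 10.0% and 11.6% of all genes tested. The median log2 fold change was -0.46. In MIX_IT 5 were lower and 1 higher (median -0.33), beside 5.11% and 7.88% of all genes. In PTX_IT none passed in either direction, beside 2.16% and 4.18%, with 13 of 14 values negative (median -0.32). The 14 genes summed to 3907, 3461, 3723 and 4003 CPM in CONTROL_IT, to 3070, 2670 and 3668 in PTX_IT, to 2727, 2558, 3580 and 2770 in NCTD_IT and to 2872, 3004, 2918 and 3222 in MIX_IT. In CONTROL_IP they summed to 3231 and 3091 CPM, below every CONTROL_IT sum, and the cause of that difference was not tested. All MIX_IT sums lay below all CONTROL_IT sums, whereas PTX_IT tumor 16 and NCTD_IT tumor 19 fell among the CONTROL_IT sums. NCTD_IT tumor 19 was also the one whose mitochondrial share (2.47%) and Malat1 (283 CPM) were lowest in its group.

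Eif3e encodes a subunit on the outer arm of the complex. Its level in CONTROL_IT was 715, 666, 748 and 695 CPM, against 462, 364, 561 and 520 in NCTD_IT and 487, 477, 491 and 450.5 in MIX_IT. Neither treated group overlapped the controls, and the MIX_IT tumors differed from each other by less than the controls did. The log2 fold change was -0.57 in both NCTD_IT (SE 0.16, adjusted p = 0.0614) and MIX_IT (SE 0.16, adjusted p = 0.166), and -0.32 in PTX_IT (SE 0.17, adjusted p = 0.795). With Xist as a covariate, which cannot be told apart from the drug in NCTD_IT, the NCTD_IT value was 0.01. Eif3f, the member with the long pyrimidine run shown above, was at 363, 367, 385 and 436 CPM in CONTROL_IT, 215, 200, 287 and 310 in NCTD_IT and 219, 282, 194 and 298 in MIX_IT. Again no treated tumor of these groups reached a control, with log2 fold changes of -0.62 (SE 0.18, adjusted p = 0.0677) and -0.65 (SE 0.18, adjusted p = 0.166). By the IP route Eif3f was higher than in CONTROL_IP (282 and 281 CPM) in all 6 treated tumors, which lay between 324 and 386 CPM. The difference between the routes for Eif3f was -0.96 for NCTD (SE 0.27, adjusted p = 0.294), the smallest adjusted p of a member in any edgeR test of route.

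Eif3a, the large scaffold subunit, had the opposite sign to most of the complex. It was at 295, 259, 282 and 228 CPM in CONTROL_IT and at 405, 458, 385 and 357 in NCTD_IT, with no overlap (log2 fold change 0.59, SE 0.17, adjusted p = 0.0671). In PTX_IT it was at 367, 296 and 359.5 CPM and in MIX_IT at 346, 285, 443 and 290.5 CPM, where 2 tumors lay within the control range (0.35, SE 0.17, adjusted p = 0.382). In the IP route the 14 genes had positive log2 fold changes in PTX_IP without exception (0.03 to 0.63), where 48.8% of all genes were negative. Their sum was 3293 CPM in PTX_IP tumor 3, near the 3231 and 3091 CPM of CONTROL_IP, and 4095 CPM in tumor 4. Eif3d, Eif3f and Eif3b were higher at an unadjusted p below 0.05, beside 3.00% of all genes. Eif3d, a subunit that can itself bind the cap of some messenger RNAs, was at 130.5 and 139 CPM in CONTROL_IP and at 188 and 226 CPM in PTX_IP (log2 fold change 0.63, SE 0.19, adjusted p = 0.906). Eif3j1 and Eif3j2 encode near-identical proteins and may share reads, so that their separate values are uncertain.

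**Figure D3:**
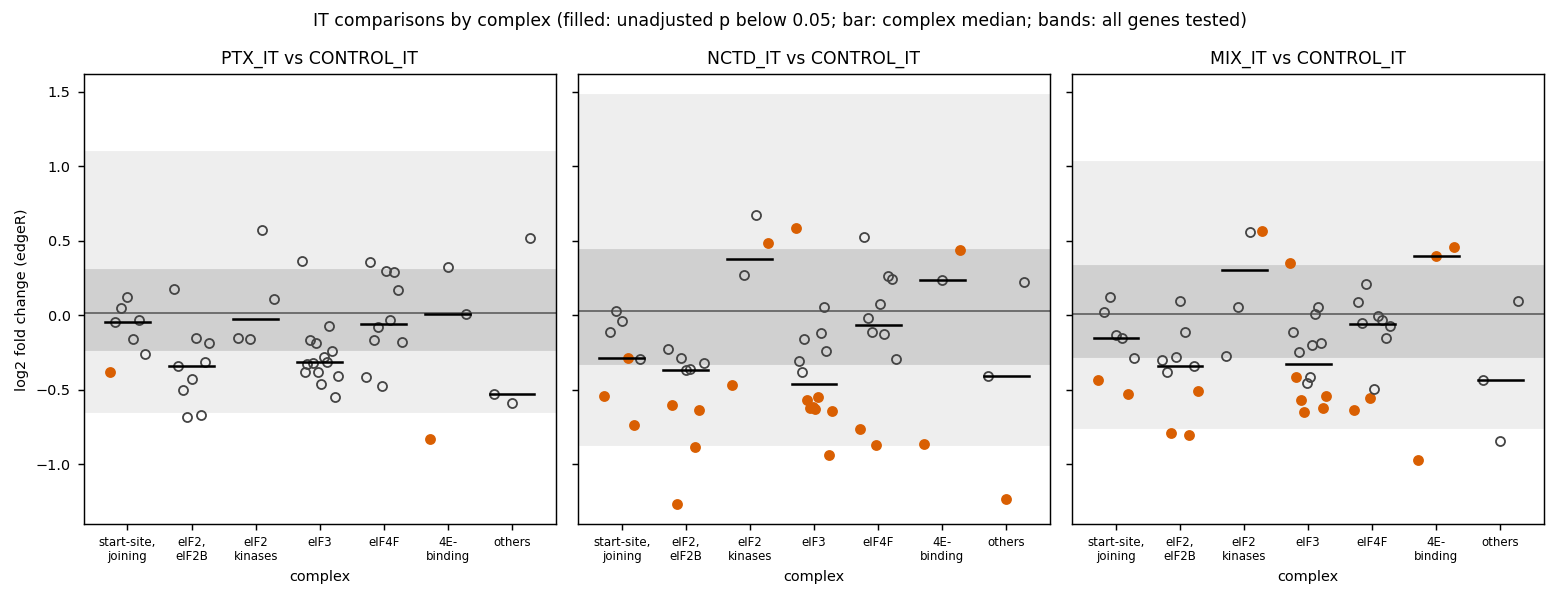
Log2 fold change (edgeR) of each tested member in the 3 IT comparisons, by complex (x axis), with filled points at an unadjusted p below 0.05, a bar at the median of the complex and grey bands for the middle 50% and 90% of all genes tested. The eIF3 medians lie at -0.32, -0.46 and -0.33, below the medians of all genes near 0, and the medians of the 4 eIF2 kinases are 0.38 in NCTD_IT and 0.31 in MIX_IT, with Eif2ak1 negative in both.

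All 9 tested genes of eIF2, eIF2B and the related tRNA carriers had negative log2 fold changes in NCTD_IT (-1.27 to -0.22). Of these, 4 were lower at an unadjusted p below 0.05, beside 10.0% of all genes tested. In MIX_IT 8 of 9 were negative and 3 were lower by that measure, beside 5.11% of all genes. In PTX_IT 8 of 9 were negative and none was lower, beside 2.16%. Eif2b2, the beta subunit of the exchange factor eIF2B, had the most negative value of these genes in NCTD_IT. It was at 71.5, 78.0, 76.9 and 83.9 CPM in CONTROL_IT, at 19.2, 27.7, 42.4 and 40.9 in NCTD_IT and at 38.8, 62.7, 20.2 and 57.6 in MIX_IT. No tumor of either treated group reached the controls, and the log2 fold changes were -1.27 (SE 0.32, adjusted p = 0.0556) and -0.79 (SE 0.32, adjusted p = 0.301). Eif2s1, the alpha subunit that the kinases phosphorylate, was at 92.1 to 110 CPM in CONTROL_IT and 47.2 to 82.3 CPM in NCTD_IT (log2 fold change -0.63, SE 0.28, adjusted p = 0.205), and overlapped the controls in MIX_IT and PTX_IT. Eif2b5, the catalytic subunit of eIF2B, overlapped the controls in all 3 groups (-0.36, -0.11 and -0.15 in NCTD_IT, MIX_IT and PTX_IT).

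The 4 kinases of eIF2 had values of both signs. Eif2ak4 encodes GCN2, the sensor of amino acid shortage. It was at 19.3, 21.5, 21.3 and 24.6 CPM in CONTROL_IT, 27.7, 34.5, 34.7 and 25.7 in NCTD_IT and 31.8, 34.8, 32.6 and 29.9 in MIX_IT, above the controls in all 8 of these tumors. The log2 fold change was 0.49 in NCTD_IT (SE 0.17, adjusted p = 0.108) and 0.57 in MIX_IT (SE 0.16, adjusted p = 0.185), while PTX_IT, at 22.5 to 23.7 CPM, lay within the controls. Eif2ak1, the heme-regulated kinase HRI, was lower in NCTD_IT (19.6 to 30.9 CPM against 29.6 to 38.5, log2 fold change -0.47, SE 0.22, adjusted p = 0.224). Eif2ak3, which encodes PERK, the sensor of stress in the endoplasmic reticulum, had positive log2 fold changes of 0.57, 0.67 and 0.56 in PTX_IT, NCTD_IT and MIX_IT with SEs of 0.41, 0.38 and 0.38. Its level was low (5.81 to 26.2 CPM in the IT tumors), and the values of NCTD_IT and MIX_IT overlapped the controls. Eif2ak2, encoding PKR, overlapped the controls in all 3 groups.

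The 10 tested genes of eIF4F and its helpers had values of both signs, 6 of 10 negative in PTX_IT and NCTD_IT and 8 of 10 in MIX_IT, with medians of -0.06, -0.07 and -0.06 in PTX_IT, NCTD_IT and MIX_IT. Eif4a1, the main RNA helicase of initiation, was at 741, 580, 613 and 641 CPM in CONTROL_IT. In NCTD_IT it was at 389, 347, 489 and 302 CPM and in MIX_IT at 397, 421, 321 and 526 CPM, below every control (log2 fold change -0.76, SE 0.24, adjusted p = 0.0838, and -0.63, SE 0.23, adjusted p = 0.271). In PTX_IT it was at 453, 293 and 697 CPM, and tumor 16 again fell among the controls. Its paralog Eif4a2 was at 34.0 to 81.1 CPM in CONTROL_IT and 61.3 to 90.7 in NCTD_IT (log2 fold change 0.53, SE 0.25, adjusted p = 0.24). Eif4e, the cap-binding protein itself, and the scaffold Eif4g1 overlapped the controls in all 3 groups, with log2 fold changes between -0.11 and 0.21 for Eif4e and between -0.12 and -0.01 for Eif4g1. Eif4a1 and Eif4a2 are close relatives, and reads that fit both cannot be assigned from these counts.

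Count ratios within a tumor do not depend on library scaling. Eif4ebp1 over Eif4e was 1.35, 0.893, 0.885 and 1.37 in CONTROL_IT, 0.714, 0.656 and 0.634 in PTX_IT, 0.50, 1.03, 0.582 and 0.671 in NCTD_IT and 0.474, 0.663, 0.334 and 0.607 in MIX_IT. On the log2 scale MIX_IT lay 1.13 below CONTROL_IT, with all 4 tumors under all controls; the two-sided exact permutation test gave p = 0.0286, the smallest it can give for 4 against 4 tumors, and 0.343 after adjustment over the 18 ratio tests. The ratio was lower by 0.72 in both PTX_IT and NCTD_IT (exact permutation p = 0.0571 and 0.0857, adjusted 0.343 and 0.386), and NCTD_IT tumor 18 lay among the controls. Eif4a2 over Eif4a1 was 1.36 higher on the log2 scale in NCTD_IT than in CONTROL_IT (exact permutation p = 0.0571, adjusted p = 0.343), with 3 of 4 tumors above all controls. It was 0.92 higher in PTX_IT and 0.79 higher in MIX_IT (exact permutation p = 0.229 and 0.171), and in the IP route the differences were -0.46, -0.77 and -0.39 in PTX_IP, NCTD_IP and MIX_IP, with both NCTD_IP tumors below both controls. Eif4g2 over Eif4g1, which compares the eIF4E-independent scaffold DAP5 with the common scaffold, differed by 0.42 in NCTD_IT, -0.06 in MIX_IT and 0.27 in PTX_IT (exact permutation p = 0.257, 0.8 and 0.686). In the IP route, where 2 against 2 tumors cannot give a p below 0.333, the Eif4ebp1 over Eif4e ratio differed from the control by -0.08 to 0.09.

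**Figure D4:**
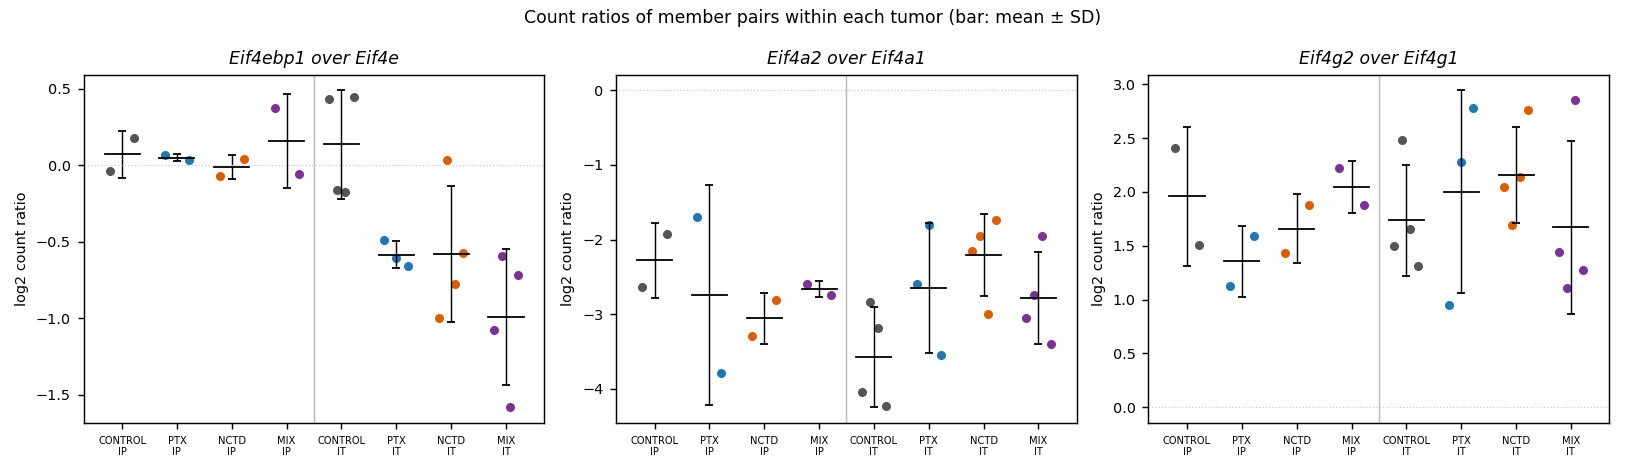
Log2 count ratios of 3 pairs of members within each of the 23 tumors (points), with the mean and SD of each group. Eif4ebp1 over Eif4e lies around 0 in the controls of both routes and below it in the MIX_IT tumors, by a mean difference of 1.13.

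Among the 7 start-site and joining factors, Eif1 and Eif5b were lower in both NCTD_IT and MIX_IT. Eif1, which keeps the scanning subunit from stopping at wrong start codons, was at 814, 599, 708 and 771 CPM in CONTROL_IT. In NCTD_IT it was at 489, 475, 492 and 537 CPM, in MIX_IT at 556, 558, 466 and 572 CPM and in PTX_IT at 501, 479 and 676 CPM. Every NCTD_IT and MIX_IT tumor was below every control (log2 fold change -0.54, SE 0.15, adjusted p = 0.0667, and -0.43, SE 0.15, adjusted p = 0.251), and PTX_IT overlapped through tumor 16 (-0.38, SE 0.17, adjusted p = 0.785). Eif5b, the GTPase that joins the large subunit, was at 269, 261, 256 and 242 CPM in CONTROL_IT, 133, 115, 193 and 179 in NCTD_IT and 208, 217, 137 and 154 in MIX_IT. These groups did not overlap, with log2 fold changes of -0.74 (SE 0.20, adjusted p = 0.0615) and -0.53 (SE 0.20, adjusted p = 0.277), while PTX_IT differed from the control by -0.03. Eif5, the GTPase activator of eIF2, was at 358 to 423 CPM in CONTROL_IT and 314 to 330 CPM in NCTD_IT (-0.29, SE 0.13, adjusted p = 0.217). Eif6, which keeps the subunits apart, overlapped the controls in the 3 IT groups and was higher in PTX_IP (90.7 and 87.8 CPM against 70.2 and 59.3, log2 fold change 0.47, SE 0.19, adjusted p = 0.906).

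Eif5a, an elongation factor despite its name, varied widely between tumors of the same group. It was at 858, 256, 196 and 835 CPM in the 4 CONTROL_IT tumors and at 384 and 223 CPM in CONTROL_IP. In NCTD_IT it was at 262, 228, 272 and 158 CPM, which overlapped the lower controls (log2 fold change -1.23, SE 0.47, adjusted p = 0.149). In PTX_IP it was at 392 and 993 CPM and in MIX_IP at 564 and 701 CPM, with log2 fold changes of 1.21 (SE 0.43, adjusted p = 0.906) and 1.06 (SE 0.43, adjusted p = 0.999). Leaving out a tumor gave values of 0.37 to 1.72 for PTX_IP, and the MIX_IP difference was called by DESeq2 on the 2 groups.

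At an unadjusted p below 0.05, 11 members were lower in both NCTD_IT and MIX_IT, namely Eif1, Eif2b2, Eif3e, Eif3f, Eif4a1, Eif4ebp1 and Eif5b together with Eif2d, Eif3l, Eif3m and Eif4e2, which are named here after their values were seen. Over all genes tested 3.22% were lower in both, and the comparisons share CONTROL_IT. Of the 11, 2 were also lower in PTX_IT, Eif1 and Eif4ebp1, beside 0.761% of all genes that were lower in all 3. Eif2ak4, Eif3a and Eif4enif1 were higher in both, beside 5.24%. Gene length, as the deposited table gives it, went with the log2 fold change. Across the 50 members Spearman's rho between length and log2 fold change was 0.40 in PTX_IT, 0.36 in NCTD_IT and 0.30 in MIX_IT, and across all genes tested it was 0.16, 0.18 and 0.17. These are correlations across genes of the same tumors and serve as a description only.

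In the IP route no member passed the adjusted threshold, with 0% of all genes in each comparison. At an unadjusted p below 0.05, 5 members were higher and none lower in PTX_IP (Eif3b, Eif3d, Eif3f, Eif5a and Eif6), beside 3.00% and 2.30% of the 12424 genes tested, none in either direction in NCTD_IP, beside 1.92% and 1.67%, and Eif5a alone was higher in MIX_IP, beside 1.39% and 1.55%. Without PTX_IP tumor 3 the count in PTX_IP was 13 and without CONTROL_IP tumor 2 it was 1, and DESeq2 on the 2 groups called Eif5a in MIX_IP and no other member in the IP route, beside 0.0186%, 0.0787% and 0.138% of all genes in PTX_IP, NCTD_IP and MIX_IP. Keratinocyte markers summed to 0 CPM in a PTX_IP tumor and 118 CPM in the other, beside 0.583 and 5.36 CPM in CONTROL_IP. The sums were 2.54 and 29.5 CPM in NCTD_IP and 0 and 1.97 CPM in MIX_IP. Krt5 and Krt14 were higher in PTX_IP (edgeR unadjusted p = 0.0296 and 0.0463, adjusted p = 0.906 for both). The part of these markers in the values of the members was not tested. The start-site factors were positive in MIX_IP for all 7 genes, between 0.04 and 0.26 on the log2 scale. Of all genes tested there, 51.2% were negative. With 2 tumors in a group, differences of this size did not pass the test.

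The differences between the routes were tested in a model of all 23 tumors. No member passed the adjusted threshold for any drug in edgeR (0% of 13395 genes in each), and DESeq2 called 1, Eif3f for NCTD, beside 0.00344%, 1.29% and 0.0564% of all genes for PTX, NCTD and MIX. At an unadjusted p below 0.05, 10 members had a lower effect by the IT route and none a higher effect for PTX, beside 5.23% of all genes in either direction. For NCTD these were 12 lower and 2 higher, beside 10.8%, and for MIX 10 lower and 2 higher, beside 7.44%. Eif1, Eif3f and Eif4ebp1 were among the lower members for all 3 drugs, with Eif3f at -0.60, -0.96 and -0.89 and Eif1 at -0.64, -0.67 and -0.52 for PTX, NCTD and MIX. The contrasts share CONTROL_IT and CONTROL_IP.

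The effect of both drugs together was set against the added effects of each in the 15 IT tumors. No member passed the adjusted threshold in edgeR or DESeq2, beside 0.0401% of all genes in edgeR and 0.139% in DESeq2, and 7 members were higher and 2 lower than the sum at an unadjusted p below 0.05, beside 11.3% of all genes in either direction. Eif4ebp1 was 0.72 above the sum of the effects of PTX and NCTD on the log2 scale (SE 0.28, adjusted p = 0.409) and Eif1 0.49 above it (SE 0.23, adjusted p = 0.438), and in both genes the values of the pair (-0.97 and -0.43) stood beside -0.86 and -0.54 for norcantharidin alone and -0.83 and -0.38 for pentoxifylline alone. Eif3a and Eif4a2 were 0.60 and 0.79 below the sum (SE 0.24 and 0.37, adjusted p = 0.417 and 0.44).

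The eIF3 sums are plotted beside the values outside the family that moved with the IT groups, and the weight of each was not tested.

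**Figure D5:**
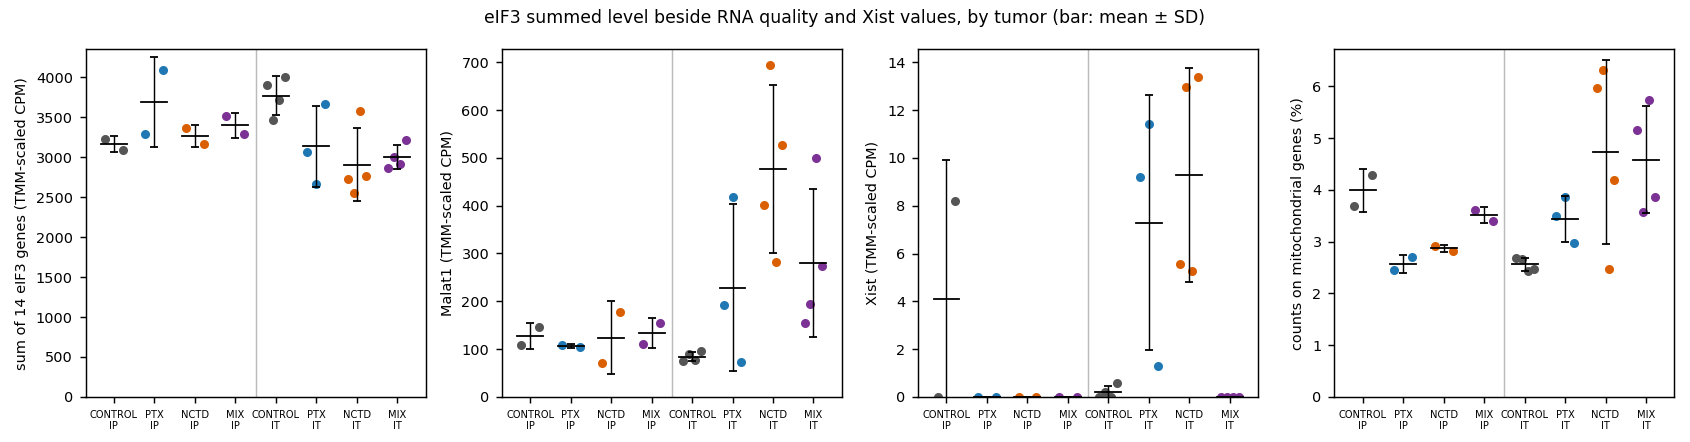
Summed TMM-scaled CPM of the 14 eIF3 genes, Malat1 and Xist (TMM-scaled CPM) and the percentage of counts on mitochondrial genes, by tumor (points) with the mean and SD of each of the 8 groups. The NCTD_IT and MIX_IT tumors lie high in Malat1, while Xist is high in NCTD_IT and at 0 in MIX_IT.

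Of 37 other genes of translation and its control, 36 were tested and none passed the adjusted threshold in any of the 6 comparisons. At an unadjusted p below 0.05, 8 were lower and 1 higher in NCTD_IT, 6 lower and 1 higher in MIX_IT and 5 lower and 0 higher in PTX_IT. The shares of all genes lower and higher there were 10.0% and 11.6%, 5.11% and 7.88%, and 2.16% and 4.18%. By the IP route 4 were higher and 0 lower in PTX_IP, 1 higher and 0 lower in NCTD_IP and 0 higher and 1 lower in MIX_IP, beside the shares given above for that route. Eef1g, a subunit of the elongation factor that delivers tRNA, was lower in all 3, at -0.79 (SE 0.19, adjusted p = 0.0538), -0.66 (SE 0.19, adjusted p = 0.185) and -0.45 (SE 0.21, adjusted p = 0.786) in NCTD_IT, MIX_IT and PTX_IT. Eef1a1, its tRNA-carrying partner, was at 294 to 413 CPM in CONTROL_IT, 169 to 281 in NCTD_IT and 114 to 234 in MIX_IT. In CONTROL_IP it was at 230 to 283 CPM. Of the 9 genes listed for phosphorylated eIF2, which include subunits of its phosphatases, 8 were tested, with median log2 fold changes of -0.71 in PTX_IT, -0.41 in NCTD_IT and -0.92 in MIX_IT, and 0.51 in PTX_IP, 0.07 in NCTD_IP and 0.47 in MIX_IP. The 9 elongation genes had medians of -0.27, -0.32 and -0.27 in PTX_IT, NCTD_IT and MIX_IT, and 0.47, 0.23 and 0.09 in PTX_IP, NCTD_IP and MIX_IP. Asns, the asparagine synthetase, was at 101 to 128 CPM in CONTROL_IT, 42.5 to 89.6 in NCTD_IT and 34.1 to 80.7 in MIX_IT. In CONTROL_IP it was at 62.0 to 79.0 CPM. Trib3, a pseudokinase of the stress response, was at 25.5 to 45.2 CPM in CONTROL_IT and 3.16 to 18.6 in MIX_IT (log2 fold change -1.51, SE 0.42, adjusted p = 0.172). In CONTROL_IP it was at 18.3 CPM in both tumors. For Eef1a1, Asns and Trib3 every CONTROL_IP tumor thus lay below every CONTROL_IT tumor, and the cause was not tested. Ppp1r15b, a regulatory subunit of an eIF2 phosphatase, had the opposite sign, with 0.78 in NCTD_IT (SE 0.25, adjusted p = 0.0871). In NCTD_IT Ppp1r15a was also positive, at 0.45 (SE 0.46), and Atf4 and Atf3 were both at -0.06. Ddit3 (-0.76) and Chac1 (-1.32) were negative there.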

How the data were processed

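RNA from 23 tumors was sequenced from libraries of the 3′ end of messenger RNA. Per the labels, the tools of the authors were Trimmomatic for trimming and STAR 2.7.11b on GRCm39. The deposited values are raw gene counts, with no normalization. The strand setting and the handling of reads with several alignments and of molecular identifiers are not given in the sources used here, so that paralogs and overlapping genes may share reads. Between 2861578 and 6702374 counts were found per tumor, and a floor of 3 counts corresponds to 0.447 to 1.05 CPM, for counting error only.

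The tests ran edgeR 4.0.16 under R 4.3.3 (TMM, filterByExpr with a minimum count of 10 and total of 15). The 4 groups of a route shared a quasi-likelihood model, and p-values were two-sided and adjusted by Benjamini-Hochberg over all genes tested at 0.05. Fits of all 23 tumors tested the differences between routes, and the 15 IT tumors the departure from additivity. Ratios used 0.5 added to each count and exact permutation tests. CPM values were scaled by TMM over all 23 tumors. Pairs of tumors within groups gave chi-square values of 8.09 to 64.6 for each degree of freedom, so that none was a library deposited again. The fits were tested on simulated data.

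The members, the complexes, the pathway list and the marker lists were chosen with earlier results of these data known. Named are members past the adjusted threshold, the 3 with the smallest unadjusted p in each direction of a comparison among those below 0.05, and core members of each complex (Eif1, Eif2s1, Eif2b5, the Eif2ak genes, Eif3a, Eif4a1, Eif4a2, Eif4e, Eif4g1, the Eif4ebp genes, Eif5, Eif5a, Eif5b and Eif6); any other was named after its values were seen. All 70 members matched GENCODE M39 genes by identifier, chromosome and strand, and 13 of them have the same start and end in both annotations. Markers of macrophages, T and NK cells, keratinocytes, skeletal muscle, erythroid cells and adipocytes were also summed, and macrophage sums lay at 170 to 793 CPM in CONTROL_IT, 132 to 951 in PTX_IT, 391 to 979 in NCTD_IT and 236 to 534 in MIX_IT. In the same order, T and NK cell sums lay at 0.753 to 34.7, 1.78 to 65.6, 8.75 to 103 and 2.43 to 46.7, muscle sums at 0.502 to 29.4, 3.82 to 120.2, 4.88 to 212 and 1.70 to 69.2, erythroid sums at 1143 to 6115, 256 to 2212, 231 to 1196 and 711 to 4411, keratinocyte sums at 0 to 0.879, 0.557 to 7.29, 0 to 7.66 and 0 to 10.7 (Krt14 at 0 in CONTROL_IT and Krt5 in PTX_IT) and adipocyte sums at 0 to 1.76, 0 to 0.836, 0 to 2.96 and 0 to 0.427. In PTX_IT 2 of 6 macrophage markers and 1 of 4 tested T and NK cell markers were higher at an unadjusted p below 0.05. In NCTD_IT 1 of each list was higher, and in MIX_IT 0. By the same measure 1, 4 and 5 of 5 fibroblast markers were higher in PTX_IT, NCTD_IT and MIX_IT. For the 3 endothelial markers it was 0, 3 and 2, and 2 of 3 erythroid markers were lower in NCTD_IT. Alternatives were DESeq2 1.42.0, its size factors, no filter, other sets of tumors or genes, Xist as a covariate, a pseudocount of 1 for the ratios, and leaving out each tumor.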

Additional observations from a re-analysis of the deposited data

Results flagged for a closer look

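Of 69 pairs of a named member and a group of 4 IT tumors, 3 held a tumor whose log2 CPM stood apart by Dixon's criterion at 95%, and chance gives about 1 in 20 such pairs. Eif4a2 stood at 61.3 CPM in NCTD_IT tumor 19, beside 87.3 to 90.7 CPM in the other 3. Eif1 stood at 466 CPM in MIX_IT tumor 23, beside 556 to 572 CPM. Eif5 stood at 332 CPM in MIX_IT tumor 22, beside 359 to 365 CPM. In edgeR no difference between routes passed the adjusted threshold among the members, where the smallest adjusted p was 0.294. DESeq2 called Eif3f for the route difference of NCTD.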

How the results depend on the processing

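With DESeq2 on the 2 groups, 12 members were called in NCTD_IT vs. CONTROL_IT in place of 1, 4 in MIX_IT (Eif3e, Eif3f, Eif4a1 and Eif4ebp1) and 1 in MIX_IP (Eif5a) in place of 0, and on all 23 tumors, an alternative chosen after seeing the data, 1 for the route difference of NCTD (Eif3f). Without a filter on low counts 7 were called in NCTD_IT, 2 in MIX_IT and 1 each in PTX_IP and MIX_IP. Models of all 23 tumors and models of only the 2 groups each gave 9 calls in NCTD_IT, and the Xist covariate left 0. In NCTD_IT, DESeq2 called 10.6% of all genes to which it gave an adjusted p, where edgeR called 1.37%. For the fits without a filter, of other sets of tumors or with Xist, the shares of all genes are not given here. These calls therefore cannot be read as particular to the members. The cause of these differences was not tested.

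Counts at an unadjusted p below 0.05 also moved, and the shares of all genes under these settings are not given here. In PTX_IP (5 members) they were 2 with DESeq2 or with only the 2 groups and 3 with all 23 tumors. In NCTD_IP (0) they were 1 with DESeq2 and 2 without the filter, with only the 2 groups or with protein-coding genes alone. In MIX_IP (1) they were 3 with DESeq2 or only the 2 groups, 2 with DESeq2's size factors or protein-coding genes alone, and 0 with all 23 tumors. In PTX_IT (2) they were 9 with DESeq2 or only the 2 groups, 7 without the filter, 6 with all 23 tumors and 4 with the Xist covariate. In NCTD_IT (22) they were 6 with the Xist covariate, which also turned the log2 fold change of Eif3e from -0.57 to 0.0135. There the covariate cannot be told apart from the drug.

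Leaving out a tumor at a time gave 1 to 13 members in PTX_IP, 0 to 1 in NCTD_IP, 0 to 2 in MIX_IP, 1 to 18 in PTX_IT, 15 to 29 in NCTD_IT and 6 to 18 in MIX_IT at an unadjusted p below 0.05, and 0 to 1 members called in NCTD_IT. In the IT route some counts differed from the full one by a factor above 1.5, upward or downward. In PTX_IT (2 in full) the count rose without PTX_IT tumor 16 (18) or CONTROL_IT tumor 10 (5). It fell there without PTX_IT tumor 13 or CONTROL_IT tumor 12 (1 each). In MIX_IT (17 in full) it fell without CONTROL_IT tumor 12 (11) or MIX_IT tumor 23 (6). In the IP route, where a group was left with 1 tumor, it was taken to vary like the other groups. The shares of all genes in the fits that left out a tumor are not given here. The log2 difference of Eif4ebp1 over Eif4e in MIX_IT lay between -1.26 and -0.93 in these fits, where 3 against 4 tumors cannot reach an exact p of 0.05. No paired analysis was possible because every tumor has a number of its own. The 20 untested members had at most 10 counts in a tumor, which was too few for a test, and 2 tumors in each IP group limit that route.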
